A study of Mus musculus with 96 samples.

Results

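Caveolin 1 (Cav1), caveolin 2 (Cav2) and caveolin 3 (Cav3), the coat proteins Cavin1 to Cavin4 and the ATPase Ehd2 were followed through all 35 conditions of an RNA-seq series of 96 samples of C2C12, a mouse myoblast line that fuses into myotubes in low serum. The 8 genes were taken by name, the cavins under these symbols and not the older Ptrf, Sdpr, Prkcdbp and Murc, and all 8 were among the 54146 genes of the table. Cav2 was also chosen by its measured values, a level that had been seen to fall with inhibitors in myoblasts, so its responses to inhibitors in myoblasts are given as values with no test. The same holds for its differences from control myoblasts with DMSO, which rest on samples that took part in the choice. The other 7 genes entered by name, as members of the same protein coat, in a choice made with earlier results of these data known.

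Proliferating myoblasts were stable lentiviral lines that carried luciferase (the control), LbNOX, mitoLbNOX or NDI1 behind the doxycycline-inducible TRE3G promoter, and every myoblast sample, controls included, received 300 ng/ml doxycycline. LbNOX is a bacterial NADH oxidase that forms water and acts in the cytosol, mitoLbNOX is its mitochondrial form, and NDI1 is a yeast NADH dehydrogenase. For 10 hr these cells received DMSO or 0.5 µM piericidin, an inhibitor of complex I, in all 4 lines, 0.5 µM antimycin, an inhibitor of complex III, in the luciferase, LbNOX and mitoLbNOX lines, or 1 µM oligomycin, an inhibitor of ATP synthase, in the luciferase and LbNOX lines. Luciferase and LbNOX myoblasts, seeded more sparsely and given uridine, also received 20 µg/ml chloramphenicol, an inhibitor of mitochondrial translation, or DMSO for 48 hr. Myotubes had spent 4 days in low serum and were untransduced or had received adenovirus carrying GFP alone or GFP with LbNOX. Untransduced myotubes received DMSO, the inhibitors, 0.5 µM BAM15, an uncoupler, oligomycin with piericidin or with BAM15, or 5% oxygen from the night before, with DMSO or oligomycin. Transduced myotubes received DMSO, piericidin or oligomycin, as did day 1 cells, which were untransduced and had spent 1 day in low serum. Each condition had 3 samples, except 2 for NDI1 myoblasts, GFP myotubes and the 48 hr conditions. Nothing stated that the samples of a condition were cultures grown apart beyond their wells, so p-values measure the spread between these samples, which may be technical.

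Caveolae are flask-shaped pits of the plasma membrane, abundant in muscle, fat and endothelium. Caveolins sit in the membrane and form the pit, cavins assemble around it as a coat, and Ehd2 encircles its neck and holds it at the surface. In muscle Cav3 takes the place of Cav1 as the main caveolin, Cavin4 is the muscle cavin, and Cav2 assembles together with Cav1.

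Cav2 (ENSMUSG00000000058) and Cav1 (ENSMUSG00000007655) lie side by side on the plus strand of chromosome 6 of GRCm38, at chr6:17281185-17289115 and chr6:17306335-17341452, 17219 bases apart and with 0 coding genes between them. Cav3 (ENSMUSG00000062694) lies far along the same chromosome at chr6:112459505-112472872, and Cavin4 (ENSMUSG00000028348) at chr4:48663514-48673502, both on the plus strand. Promoter windows of RefSeq, 250 bases before to 50 bases after each start site on GRCm38.p6, matched 7 of the 8 genes. The first Cav1 window and those of Cav2, Cav3 and Cavin4 are printed because Cav1 and Cav2 are neighbours and Cav3 and Cavin4 had the largest differences between myotubes and control myoblasts. Capitals mark CANNTG, the E-box that myogenic factors such as MyoD bind, which reads the same on both strands.
Cav1 (chr6:17306085-17306384, plus strand): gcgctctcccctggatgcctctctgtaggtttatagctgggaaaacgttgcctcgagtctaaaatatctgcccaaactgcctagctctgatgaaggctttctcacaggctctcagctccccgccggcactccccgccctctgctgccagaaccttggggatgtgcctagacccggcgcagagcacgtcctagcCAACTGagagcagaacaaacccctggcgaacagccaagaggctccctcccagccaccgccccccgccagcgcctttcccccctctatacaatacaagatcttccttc
Cav2 (chr6:17280935-17281234, plus strand): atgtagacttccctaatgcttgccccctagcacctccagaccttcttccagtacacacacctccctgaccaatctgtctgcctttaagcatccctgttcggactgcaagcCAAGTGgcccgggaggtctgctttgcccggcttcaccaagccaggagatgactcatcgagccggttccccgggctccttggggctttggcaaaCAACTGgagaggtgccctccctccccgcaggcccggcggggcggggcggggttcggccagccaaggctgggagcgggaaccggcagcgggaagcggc
Cav3 (chr6:112459255-112459554, plus strand): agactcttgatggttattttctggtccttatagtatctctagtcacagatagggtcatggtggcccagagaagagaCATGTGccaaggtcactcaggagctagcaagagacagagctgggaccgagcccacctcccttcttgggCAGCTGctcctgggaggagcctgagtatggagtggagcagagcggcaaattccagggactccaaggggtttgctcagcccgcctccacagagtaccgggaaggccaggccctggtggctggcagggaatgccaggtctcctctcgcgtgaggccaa
Cavin4 (chr4:48663264-48663563, plus strand): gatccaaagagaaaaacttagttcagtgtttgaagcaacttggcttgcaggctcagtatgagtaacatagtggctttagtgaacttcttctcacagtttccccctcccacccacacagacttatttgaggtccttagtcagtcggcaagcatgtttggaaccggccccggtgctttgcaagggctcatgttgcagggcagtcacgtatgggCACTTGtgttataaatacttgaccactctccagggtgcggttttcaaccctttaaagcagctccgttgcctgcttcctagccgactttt

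Counted from the start site at 0, the E-box of this Cav1 window began at -57, those of Cav2 at -140 and -47, those of Cav3 at -174 and -106 and that of Cavin4 at -39, with a TATAAA on the plus strand at -30. CANNTG was in 72.3% of 32851 promoter windows of the same length and TATAAA in 13.6%, so an E-box did not set these windows apart. Neither TGATGNAAN, the element of ATF4 and C/EBP proteins, nor TCACNCCAC, a sterol element, was found on either strand of a window of the 7 genes, beside 3.95% and 1.24% of all windows, and the E2F letters TTTGGCGC and TTTCCCGC were not found there either, beside 0.514% and 1.07%. CATTCC, the MCAT core that TEAD proteins bind, was in the windows of Cav3, at 18 on the minus strand, and Cavin1, beside 14.7% of all windows. Of the remaining members, Ehd2 (ENSMUSG00000074364) lies at chr7:15946958-15967567, Cavin1 (ENSMUSG00000004044) at chr11:100956733-100970887 and Cavin3 (ENSMUSG00000037060) at chr7:105480083-105482300 on minus strands, and Cavin2 (ENSMUSG00000045954) at chr1:51289126-51302960 on the plus strand. Cavin3 was the only member whose exons overlapped another gene, Gm45667 on the opposite strand, over up to 374 bases, and as the libraries did not keep strand their reads cannot be told apart.

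Totals ran from 6458295 to 15366745 estimated counts per sample, with a median of 10336588.5. Each of the 4 transgene sequences had 0 counts in every sample that did not carry it and at least 372 in every sample that did. The LbNOX sequence stood for both LbNOX and mitoLbNOX, so these counts did not tell those lines apart. A list of 6 markers of differentiated muscle summed to 103 to 947 normalized counts in the 45 myoblast libraries, 111953 to 120531 in the 9 day 1 libraries and 107054 to 149084 in the 42 myotube libraries. A list of 4 markers of proliferating cells summed to 5764 to 11499, 1549 to 2136 and 221 to 1330 in the same order. Among cell types rich in caveolae, 4 of 5 endothelial markers (Cdh5, Kdr, Tek and Cldn5) and all 4 adipocyte markers stayed under 16 estimated counts in every library. With DMSO the remaining one, Pecam1, was at 25.2 ± 3.84 normalized counts in control myoblasts, 20.9 ± 5.69 in day 1 cells and 19.1 ± 1.67 in myotubes (SD, n = 3). A normalized count is the estimated count divided by the DESeq2 size factor of its sample over all 96 samples. A gene is called where the adjusted p of edgeR's quasi-likelihood test, Benjamini-Hochberg over all genes tested, is under 0.05. Differences are log2 fold changes of that fit with their standard errors (SE). Cav3 was under the filter on low counts in all 24 comparisons within myoblasts, and the other 7 members were fitted in all 51.

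Cav3 and Cavin4 had higher levels in day 1 cells and myotubes than in control myoblasts, while Cav1 had the highest mean level per length of the caveolins in all 3 states. Per kilobase of mean transcript length, with DMSO, Cav1 was at 727 normalized counts, Cav2 at 156 and Cav3 at 1.78 in control myoblasts, so that Cav3 made up 0.201% of the 3 caveolins. In day 1 cells Cav1 was at 1090, Cav3 at 166 and Cav2 at 62.8. In myotubes Cav1 was at 1331, Cav3 at 921 and Cav2 at 98.4, and the shares were 56.6%, 39.2% and 4.19%. Cav1 and Cav2 have several transcripts, and with the longest or the shortest of them the control myoblast levels were 384 or 2776 for Cav1 and 83.7 or 329.6 for Cav2. In myotubes Cav1 was at 703 with its longest transcript, under the 921 of Cav3, so the order of these genes and their shares there depend on the length used. Among the cavins, Cavin1, the core of the coat, was at 2982 per kilobase in control myoblasts, 74.2% of the cavins, beside 758 for Cavin3, 160 for Cavin4 and 117 for Cavin2. In myotubes Cavin4 was at 2062 per kilobase and Cavin1 at 2044, 42.4% and 42.0% of the cavins. Ehd2 stood at 296, 244 and 176 per kilobase in myoblasts, day 1 cells and myotubes.

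**Figure D1:**
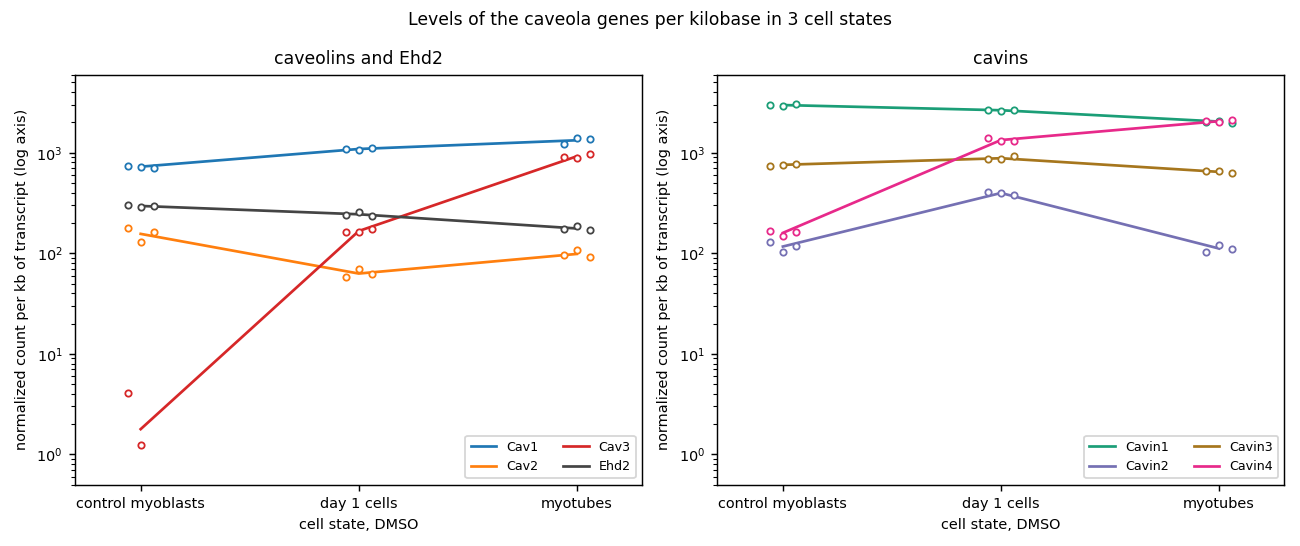
Normalized counts per kilobase of transcript (log axis) of the caveolins and Ehd2 (left) and the cavins (right) with DMSO in control myoblasts, day 1 cells and myotubes; points are the 3 samples of each state and lines join the means. Cav3 climbed from 1.78 to 921 and Cavin4 from 160 to 2062 while Ehd2 and Cavin1 declined; the control myoblast library with 0 counts of Cav3 cannot be drawn on the log axis.

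Cav3 had 5, 2 and 0 counts in the 3 control myoblast libraries with DMSO, a sum of 7 with an exact Poisson 95% interval of 2.81 to 14.42 that covers counting error only. In all 45 myoblast libraries it had 0 to 5 counts, and 25 of them had 0. Day 1 cells had 191 to 247 counts per library and myotubes 953 to 1113. Against control myoblasts the ratio of the summed counts, scaled by the summed size factors of the libraries, was 96.4 (46.5 to 240.8) in day 1 cells and 532.5 (258.1 to 1325.4) in myotubes, with 95% counting intervals. Cavin4 was at 342, 308 and 333 normalized counts in control myoblasts, 2858, 2680 and 2703 in day 1 cells and 4212, 4184 and 4307 in myotubes. It rose by 3.02 (SE 0.096, adjusted p = 2.54e-21) at day 1 and by a further 0.655 (SE 0.085, adjusted p = 4.52e-07) to the myotube, with no overlap at either step.

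Cavin2, which binds phosphatidylserine, was at 394, 311 and 364 normalized counts in control myoblasts, 1248, 1225 and 1171 in day 1 cells and 316, 366 and 339 in myotubes. It was thus high at day 1 alone, 1.72 (SE 0.098, adjusted p = 2.95e-15) above myoblasts, and myotubes differed from day 1 cells by -1.80 (SE 0.099, adjusted p = 1.27e-14). Cav2 took the opposite course, from 261, 188 and 237 through 84.9, 101.3 and 90.3 to 142, 157 and 134, a difference of -1.36 with no test at the first step, before it rose by 0.68 (SE 0.157, adjusted p = 0.00114). Cav1 rose by 0.53 (SE 0.064, adjusted p = 2.73e-08) and then by 0.32 (SE 0.063, adjusted p = 0.000215), the second step being lost without the samples numbered 2 (0.21, adjusted p = 0.131). Ehd2 fell by 0.33 and 0.44 and Cavin1 by 0.225 and 0.343 at the same steps, each with an adjusted p of at most 7.27e-05. Cavin3, which couples the coat to signaling proteins, was higher at day 1 (0.165, SE 0.059, adjusted p = 0.0162, lost without the samples numbered 1, adjusted p = 0.0751, and with no filter, 0.284) and lower in myotubes than at day 1 (-0.42, SE 0.059, adjusted p = 1.8e-06).

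Cav2 and Cav3 were left out of the counts against control myoblasts, Cav3 because it passed the filter on low counts only through the differentiated cells. All 6 other members were called between day 1 cells and control myoblasts, 4 higher and 2 lower, beside 63.6% of all genes tested, and 5 of 6 between myotubes and control myoblasts, 2 higher and 3 lower, beside 69.4%. All 8 were called between myotubes and day 1 cells, 4 in each direction, beside 35.6%. Of a list of 20 proteins that bind or shape caveolae, 15 had at least 16 counts in every sample of both myotubes and control myoblasts. Of these partners 10 were higher and 4 lower in myotubes, with a median of 0.935. Of all genes tested 35.7% were higher and 33.7% lower, with a median of 0.039. Among the partners were Dysf, dysferlin (3.16) and Pacsin3, a membrane-bending protein of muscle (2.60), while Flna, which ties caveolae to actin, was lower (-1.36). The other 4 tested, Trim72, Pacsin1, Nos1 and Ror1, passed the filter only through the differentiated cells and are not counted. Trim72, a membrane repair protein of muscle, had 0 to 1 counts in control myoblasts and 913 to 1047 in myotubes. The control myoblasts also differed from the other states in lentivirus, doxycycline, serum and density, which cannot be told apart from the state. With DMSO, all control myoblast and day 1 samples came from outer wells of the plate and all untransduced myotube samples from inner wells. In bulk samples fewer cells of a type and less RNA per cell cannot be told apart either.

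In control myoblasts each of the 3 inhibitors lowered Ehd2, Cavin1 and Cavin3, while the calls of Cav1, Cavin2 and Cavin4 depended on the inhibitor. Cav2 was at 261, 188 and 237 normalized counts with DMSO, 27.9, 46.7 and 27 with piericidin, 45.5, 33.9 and 32.1 with antimycin and 75.1, 89.4 and 71.1 with oligomycin. These values, differences of -2.72, -2.57 and -1.52, are the ones that chose the gene, and no group of inhibitor samples overlapped the DMSO samples. Cav1, its neighbour and partner, was at 1083, 1049 and 1033 with DMSO, 438, 483 and 439 with piericidin, 1107, 1088 and 1022 with antimycin and 840, 878 and 933 with oligomycin. It fell by 1.19 with piericidin (SE 0.065, adjusted p = 4.23e-16) and by 0.24 with oligomycin (SE 0.062, adjusted p = 0.0015), and differed by 0.06 with antimycin (SE 0.062, adjusted p = 0.429), where the groups overlapped.

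Ehd2 had the largest fitted fall of the tested members with each inhibitor, but with oligomycin its lead over Cavin4 was under the SE. It was at 1553, 1466 and 1520 with DMSO, 614, 621 and 503 with piericidin, 602, 604 and 661 with antimycin and 697, 720 and 647 with oligomycin, falls of 1.36, 1.25 and 1.12 (SE 0.065, 0.065 and 0.064) with an adjusted p of at most 2.44e-15. Cavin1 was at 10368, 10248 and 10616 with DMSO and at 5311, 5694 and 5253 with oligomycin, its deepest fall (-0.93, SE 0.036, adjusted p = 1.56e-19), beside -0.51 with piericidin and -0.455 with antimycin. Cavin3 fell from 1238 to 1293 with DMSO into the range of 897 to 1051 under all 3 inhibitors, by 0.37, 0.42 and 0.32, with an adjusted p of at most 9.95e-05.

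Cavin4 fell with piericidin and oligomycin, and Cavin2 rose with oligomycin and fell with antimycin. Cavin4 was at 342, 308 and 333 with DMSO, 243, 213 and 190 with piericidin, 330, 356 and 359 with antimycin and 146, 202 and 111 with oligomycin. The differences were -0.58 with piericidin (SE 0.149, adjusted p = 0.00131), -1.075 with oligomycin (SE 0.151, adjusted p = 5.69e-07) and 0.12 with antimycin (SE 0.145, adjusted p = 0.477). Cavin2 rose by 0.41 with oligomycin (SE 0.118, adjusted p = 0.00483), differed by -0.03 with piericidin (SE 0.12, adjusted p = 0.837) and fell by 0.37 with antimycin (SE 0.122, adjusted p = 0.00956). In that last comparison the groups overlapped at 316 against 311, and the call was lost without DMSO replicate 1 (adjusted p = 0.06) or antimycin replicate 3 (adjusted p = 0.0587).

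**Figure D2:**
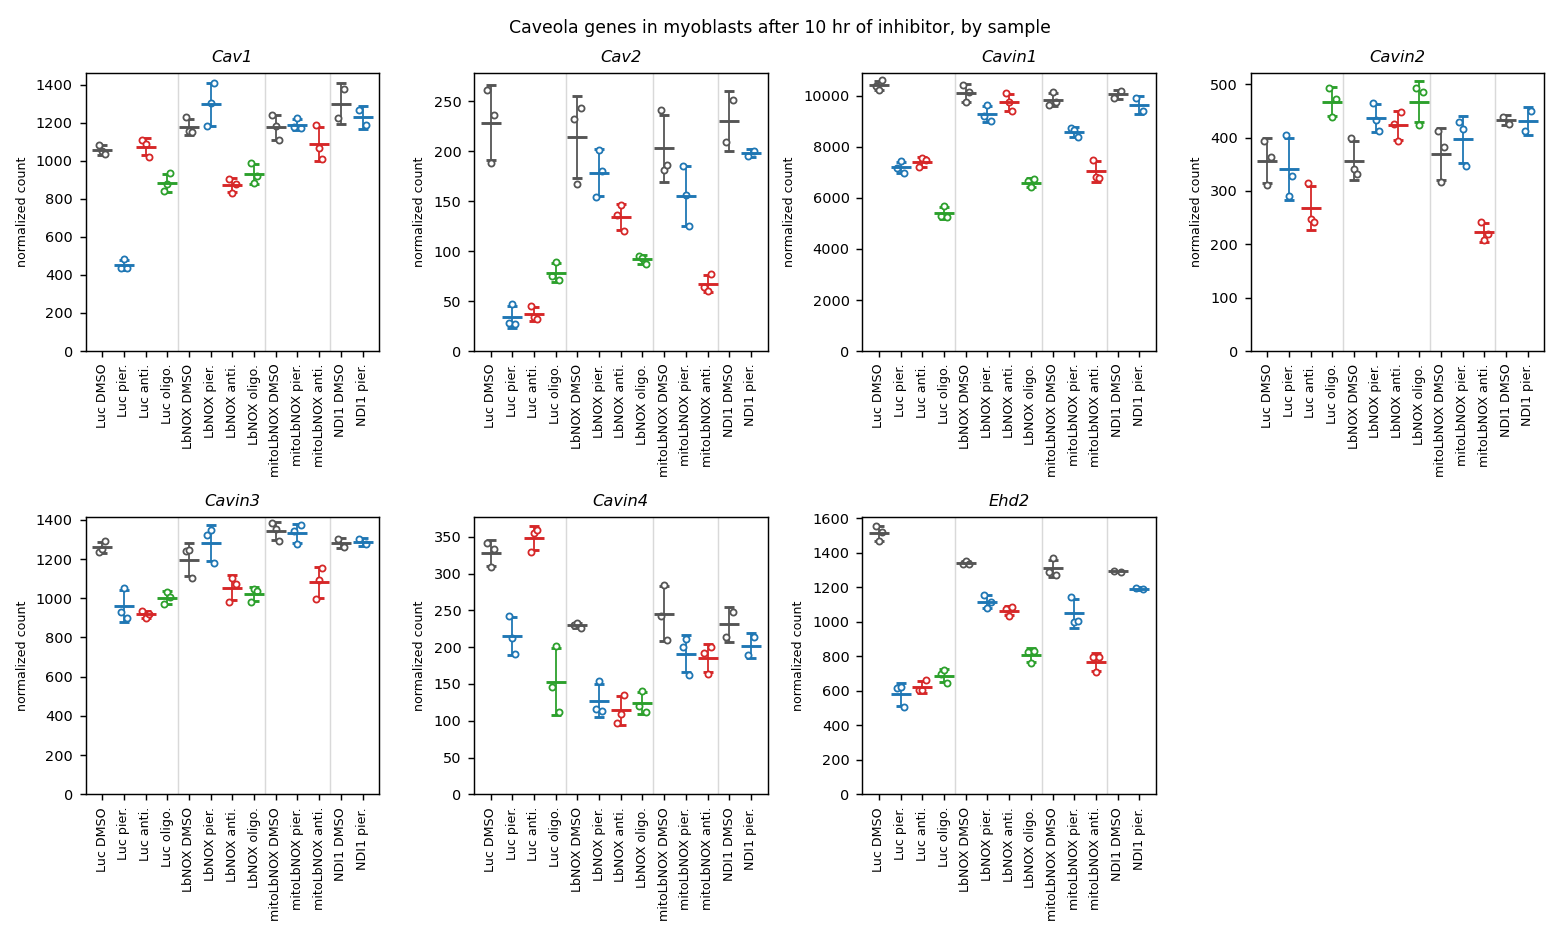
Normalized counts (linear axis from 0) of 7 members in 37 myoblast samples after 10 hr, by line and inhibitor, with a point per sample, a bar at the mean and whiskers of 1 SD. Cav2 sat at 27 to 89.4 in luciferase myoblasts under the 3 inhibitors and at 154 to 201 in LbNOX myoblasts with piericidin; Cav3, at 0 to 5 counts, is not drawn.

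Comparisons within a line share their DMSO samples. The DMSO samples of the NDI1 line all came from outer wells of the plate and its piericidin samples from inner wells. In the control line the DMSO samples were all outer and the antimycin samples all inner. Apart from Cav2, 5 of 6 tested members were called with piericidin, all lower, 4 of 6 with antimycin, all lower, and 6 of 6 with oligomycin, 1 higher and 5 lower. Of all genes tested 61.7%, 63.2% and 50.8% were called, and 30.8%, 31.1% and 26.3% were called lower. Of the 15 tested partners, with piericidin 7 were higher and 3 lower (median 0.545, beside -0.004 over all genes), with antimycin 9 and 4 (0.47, beside -0.005), and with oligomycin 5 and 4 (0.16, beside -0.015). Fyn, a kinase of the Src family that phosphorylates caveolin 1, rose by 2.515, 2.02 and 1.995, and Pacsin2, which bends the caveolar neck, by 0.99, 1.28 and 0.83. Flot2, flotillin 2, fell by 1.05, 0.315 and 0.95, and Ehd3, a paralog of Ehd2, was at -1.76, -0.85 and -1.17. All 16 genes of a sterol synthesis list were lower with each inhibitor, with medians of -1.77, -1.49 and -1.42. The 4 proliferation markers summed to 11013 ± 260 in DMSO samples (SD, n = 3), 9452 ± 377.4 under piericidin, 6852 ± 166 under antimycin and 9079 ± 166 under oligomycin, and the 6 muscle markers, of which 1 passed the filter, to 191 ± 24.6, 303 ± 34.8, 894 ± 46.3 and 270 ± 42.1. Atf3 and Ddit3, genes of the integrated stress response, summed to 170 ± 14.8, 5395 ± 152, 9234 ± 352 and 3290 ± 52.4. Of the 4 proliferation markers 1 was called higher and 3 lower with piericidin, 0 and 4 with antimycin and 0 and 3 with oligomycin. The part of these lists in the members' changes was not tested.

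Compared with each other, all 3 pairs of inhibitors gave calls in Cav1, Cavin2 and Cavin4. The Cav2 difference, with no test, was 0.15 for antimycin minus piericidin, -1.05 for antimycin minus oligomycin and -1.20 for piericidin minus oligomycin. Between antimycin and piericidin, Cav1 was 1.25 higher with antimycin (SE 0.065, adjusted p = 1.19e-15) and Cavin4 0.70 higher (SE 0.15, adjusted p = 0.000406), while Cavin2 was 0.34 lower (adjusted p = 0.0312), a call lost without antimycin replicate 2 (adjusted p = 0.113), antimycin replicate 3 (0.139) or piericidin replicate 1 (0.267) or with only the groups compared (0.0999). These were 3 of 6 members, beside 37.2% of all genes. Between antimycin and oligomycin 4 of 6 were called, beside 50%. Cavin4 was 1.20 higher, Cavin1 0.475 higher and Cav1 0.30 higher with antimycin, and Cavin2 0.775 lower. Between piericidin and oligomycin 5 of 6 were called, beside 39.2%. Cav1 was 0.95 lower, Cavin2 0.44 lower and Ehd2 0.23 lower with piericidin, and Cavin1 0.42 and Cavin4 0.50 higher. The call of Ehd2 there was lost without piericidin replicate 3 (-0.14, adjusted p = 0.0806) or with no filter (0.0713), and that of Cavin4 without piericidin replicate 1 (adjusted p = 0.0747) or oligomycin replicate 3 (0.102) or with only the groups compared (0.0842).

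The LbNOX, mitoLbNOX and NDI1 lines addressed whether the members' response to an inhibitor changed where an added enzyme oxidized NADH. By the authors' account NDI1 resists piericidin and also lets ATP synthesis go on, so its comparison is not one of redox state alone. Of the 6 members other than Cav2 and Cav3, none was called without inhibitor between LbNOX or mitoLbNOX and control myoblasts, beside 2.68% and 1.77% of all genes. At an unadjusted p under 0.05 there were 3 (Cav1, Cavin4, Ehd2) and 4 (Cav1, Cavin1, Cavin4, Ehd2), beside 1406 and 1375 of 11981 genes, and DESeq2 called 1 (Cavin4) and 0. Cavin4 in LbNOX was also called lower with no filter, only the groups compared or the replicate block (adjusted p = 0.0131, 0.0196 and 0.0361). In NDI1 myoblasts Cav1 was higher, 1225 and 1376 beside 1033 to 1083 (0.31, SE 0.068, adjusted p = 0.00467), 1 of 6 members beside 4.61%, and that call was lost with only the groups compared (adjusted p = 0.0542) and without NDI1 DMSO replicate 2 (0.22, adjusted p = 0.232), where the lone sample left was assumed to vary like the other groups of the fit. NDI1 also had Ehd2 called lower with DESeq2 (adjusted p = 0.0323) and Cavin4 with the replicate block (0.04). Cav2 had 233, 168 and 244 normalized counts in LbNOX, 242, 181 and 187 in mitoLbNOX and 209 and 252 in NDI1 myoblasts with DMSO, and each group overlapped the control line.

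With piericidin, Cav2 stayed at 154, 201 and 180 in LbNOX, 185, 156 and 125 in mitoLbNOX and 195 and 201 in NDI1 myoblasts, all above the 27 to 46.7 of the control line. The response of Cav2 was less negative than in control myoblasts by 2.47, 2.35 and 2.52, values that rest on the same control samples that chose the gene and have no test. The same samples showed Cav1 at 1181, 1305 and 1406 in LbNOX, 1175, 1224 and 1169 in mitoLbNOX and 1269 and 1186 in NDI1 myoblasts. Its response differed from that of control myoblasts by 1.35 (SE 0.089), 1.23 (SE 0.089) and 1.12 (SE 0.099), with an adjusted p of at most 1.02e-10 in each. For Ehd2 the difference was 1.11, 1.06 and 1.26 and for Cavin1 0.395, 0.33 and 0.46, with an adjusted p of at most 3.11e-06 in each, and for Cavin3 0.48, 0.37 and 0.39, with an adjusted p of at most 0.00205. In each of the 3 lines these were 4 of 6 tested members, all in the direction of a weaker fall, in comparisons that share the control DMSO and piericidin samples and so are not independent, beside 44.3%, 42.8% and 42.7% of all genes called and 22.3%, 21.5% and 21.2% called higher (22% in LbNOX and 21.4% in mitoLbNOX were called lower). Cavin2 and Cavin4 were not called in any of them, though Cavin2 in LbNOX myoblasts was called without control piericidin replicate 1 (0.48, adjusted p = 0.0206) or control DMSO replicate 2 (0.425, adjusted p = 0.0495) and with the replicate block (0.0414).

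Within the lines, piericidin still lowered Ehd2 in LbNOX (1336, 1354 and 1335 to 1158, 1081 and 1113) and in mitoLbNOX myoblasts (1290, 1367 and 1272 to 1146, 998 and 1004), by 0.25 and 0.30, with adjusted p = 0.00928 and 0.00115. Cavin4 fell by 0.85 in LbNOX myoblasts, from 226 to 233 down to 113 to 154 (SE 0.157, adjusted p = 0.000406). Cavin1 fell by 0.18 in mitoLbNOX (adjusted p = 0.000754) and by 0.11 in LbNOX myoblasts (adjusted p = 0.0471), a call lost without LbNOX DMSO replicates 1 or 3 or piericidin replicates 1 or 3 (adjusted p = 0.206, 0.0974, 0.109 and 0.195) and under 4 of the other settings (0.0584 to 0.127). Cavin2 in LbNOX was called higher with the replicate block (0.31, adjusted p = 0.0385). Cav1 in LbNOX myoblasts was at 0.15 (adjusted p = 0.12), and higher without piericidin replicate 1 (0.21, adjusted p = 0.0497). The calls were 3 of 6 members in LbNOX and 2 of 6 in mitoLbNOX, all lower, beside 8.87% of all genes called in LbNOX (5.01% higher and 3.86% lower) and 11.2% in mitoLbNOX (6.37% higher and 4.82% lower). In NDI1 myoblasts piericidin gave 0 calls of 6 members with edgeR, 0 at an unadjusted p under 0.05, beside 1005 of 11981 genes, and 0 with DESeq2, beside 0.00835% of all genes called. The summed Atf3 and Ddit3 level with piericidin was 326 ± 21.9 in LbNOX, 602 ± 11.9 in mitoLbNOX and 288 ± 41.2 (n = 2) in NDI1 myoblasts, beside 5395 ± 152 in control myoblasts, and of the 16 sterol genes 14, 14 and 16 had a higher response than in control myoblasts, and 1 had a lower response in mitoLbNOX. Their part in the members' values was not tested.

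**Figure D3:**
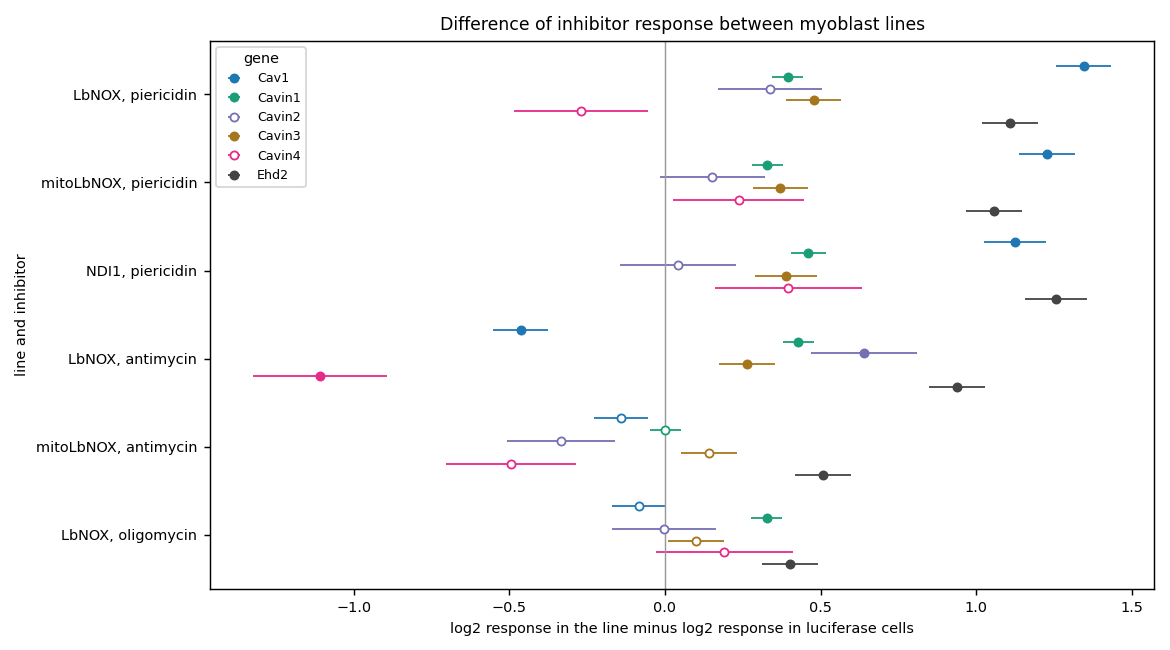
Difference between the log2 response to an inhibitor in a line and in luciferase myoblasts for 6 members, with bars of 1 SE; filled points are called at an adjusted p under 0.05. With piericidin Cav1 and Ehd2 sit above 1 in all 3 lines, while with antimycin in LbNOX myoblasts Cav1 and Cavin4 sit below 0 and Ehd2 above it; Cav2 is left out because its control values chose it.

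With antimycin the LbNOX line gave members that moved apart. Cav1, at 1228, 1154 and 1151 with DMSO, was at 904, 832 and 880 with antimycin, a fall of 0.41 (SE 0.062, adjusted p = 2.96e-06), and the difference from the response of control myoblasts was -0.46 (SE 0.088, adjusted p = 5.12e-05). Cavin4 went from 226 to 233 down to 97.4, 109 and 136 (-0.99, SE 0.159, adjusted p = 6.53e-06), a difference of responses of -1.11 (SE 0.215, adjusted p = 7.15e-05). Cav2, at 136, 146 and 121, lay between the LbNOX samples with DMSO and the control line with antimycin. Ehd2 (0.94), Cavin1 (0.43), Cavin2 (0.64) and Cavin3 (0.26) had a higher response than in control myoblasts, each with an adjusted p of at most 0.0152, though Cavin3 did not pass with no filter (0.177). In all 6 of 6 tested members the response differed, 4 higher and 2 lower, beside 51.5% of all genes. Within LbNOX myoblasts 4 of 6 were called, all lower, beside 46.1%: Cav1, Cavin4, Ehd2 (-0.31) and Cavin3 (-0.16, adjusted p = 0.0375), the last lost without DMSO replicate 1 (0.131), DMSO replicate 2 (0.143) or antimycin replicate 1 (0.204) or with no filter (0.0833). Cavin2 there was called higher without DMSO replicate 1 (0.36, adjusted p = 0.0306) and with the replicate block (0.0201). In the same LbNOX samples the proliferation markers summed to 10541 ± 106 with DMSO and 5946 ± 172.5 with antimycin, with 4 of 4 lower. The myogenic genes went from 4456 ± 190 to 4983 ± 146 in LbNOX, with 1 of 4 higher and 1 lower, and from 5482 ± 122 to 7867 ± 281 in control myoblasts, with 3 higher and 1 lower. The part of these lists in the responses was not tested.

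In mitoLbNOX myoblasts the antimycin response differed from that of the control line in 1 tested member. Cav2 was at 64.4, 60.6 and 77.5, still below all mitoLbNOX samples with DMSO. Ehd2, at 794, 708 and 796, fell by 0.74 (SE 0.064, adjusted p = 4.29e-11), a fall smaller than in control myoblasts by 0.51 (SE 0.09, adjusted p = 5.89e-05), the 1 of 6 members called, beside 31.7% of all genes. Cavin1 fell by 0.45 as it did in control myoblasts, with a difference of responses of 0.001 (SE 0.05). Cavin2 fell by 0.70 to 242, 207 and 219 and Cavin3 by 0.28. Within the line 5 of 6 members were lower, beside 47.7%, and that of Cavin4 (-0.37, adjusted p = 0.0421) was lost without DMSO replicates 1 or 2 or antimycin replicates 1 or 2 (adjusted p = 0.0519, 0.213, 0.0674 and 0.165) or with plate position (0.0514). Its difference of responses was -0.495 (adjusted p = 0.0714), and was called without DMSO replicate 3 (-0.585, adjusted p = 0.0424) and with only the groups compared (0.0298). Atf3 and Ddit3 summed to 340 ± 16.5 in LbNOX and 4754 ± 144 in mitoLbNOX myoblasts with antimycin. In mitoLbNOX the proliferation markers went from 10346 ± 335 to 6732 ± 242 and the myogenic genes from 4762 ± 246 to 5213 ± 283. Of the proliferation markers 4 of 4 were lower, and of the 4 myogenic genes 2 were higher and 1 lower.

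With oligomycin fewer responses differed between the LbNOX and control lines. Cav2 was at 95.6, 92.8 and 87.3, beside 75.1, 89.4 and 71.1 in the control line. Within LbNOX myoblasts Cav1 (-0.33), Ehd2 (-0.72), Cavin1 (-0.60), Cavin3 (-0.22) and Cavin4 (-0.88) were lower and Cavin2 (0.40) higher, 6 of 6 beside 35.2%. The calls of Cavin3 and Cavin2 were lost without oligomycin replicate 1 (adjusted p = 0.0635) and DMSO replicate 3 (adjusted p = 0.0521). Against control myoblasts 2 of 6 responses differed, Ehd2 (0.40, SE 0.09, adjusted p = 0.00376) and Cavin1 (0.33, SE 0.05, adjusted p = 4.1e-05), both a weaker fall, beside 7.98% of all genes called, 3.8% higher and 4.18% lower. Atf3 and Ddit3 summed to 1465 ± 32.2 in these samples.

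Chloramphenicol for 48 hr lowered 3 of 6 members in luciferase myoblasts (n = 2 and 2), beside 8.45% of all genes. Cavin1 went from 10559 and 11168 to 8811 and 8945 (-0.26, SE 0.039, adjusted p = 0.00437). Cav1 went from 1375 and 1471 to 1148 and 1107 (-0.30, SE 0.06, adjusted p = 0.0165), and Ehd2 from 1511 and 1462 to 1113 and 1201 (-0.33, SE 0.068, adjusted p = 0.0195). The call of Cav1 was lost without chloramphenicol replicates 1 or 2 or DMSO replicate 2 (adjusted p = 0.0595, 0.0944 and 0.114) and that of Ehd2 without chloramphenicol replicate 1 or DMSO replicates 1 or 2 (0.12, 0.0974 and 0.0608), fits in which the lone sample left in a group was assumed to vary like the other groups. Both calls were also lost with only the groups compared (0.0533 and 0.0522). Cav2 was at 243 and 257 with DMSO and 218 and 178 with chloramphenicol, above the range under the 10 hr inhibitors in this line. In the same samples Atf3 and Ddit3 summed to 194 ± 14.1 with DMSO and 769 ± 74.3 with chloramphenicol (SD, n = 2). The proliferation markers summed to 11052 ± 632 and 9639 ± 25.6, with 1 of 4 called lower and 0 higher. All 16 sterol genes were lower (median -0.98), and the part of these lists in the members' changes was not tested. In LbNOX myoblasts edgeR called 0 of 6 members, beside 0.931% of all genes, with 2 at an unadjusted p under 0.05 (Cavin1, Ehd2), beside 1498 of 11704 genes, and 0 with DESeq2. The difference between the lines gave 0 of 6, beside 0.53%, with 4 unadjusted (Cav1, Cavin1, Cavin2, Cavin3), beside 1181 of 11704 genes, 1 with DESeq2 (Cav1) and 2 with no filter (Cav1, Cavin1).

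In untransduced myotubes, whose values had no part in choosing Cav2, more members were called lower with oligomycin than with piericidin or antimycin. More of all genes were called with oligomycin too, 33.3% beside 8.99% and 12.9%. Cav3 was at 1043, 1031 and 1123 normalized counts with DMSO and 585, 512 and 502 with oligomycin, a fall of 0.99 (SE 0.063, adjusted p = 5.04e-12). Ehd2 fell from 895, 947 and 868 to 762, 702 and 675 (-0.33, SE 0.057, adjusted p = 6.36e-05). Cavin1 fell by 0.32 (SE 0.039, adjusted p = 5.86e-07) and Cavin4 by 0.29 (SE 0.038, adjusted p = 1.69e-06), and Cavin2 by 0.22 (adjusted p = 0.0336), a call lost without DMSO replicates 2 or 3 or oligomycin replicate 3 (adjusted p = 0.174, 0.071 and 0.157) and under 4 of the other settings (0.0676 to 0.22). Cav1 (-0.05), Cavin3 (-0.03) and Cav2 (-0.28, SE 0.119, adjusted p = 0.0738, and 0.032 with plate position) did not pass. These were 5 of 8 members, all lower, beside 33.3% of all genes called and 16.4% called lower. Of 19 tested partners 3 were higher and 5 lower (median -0.08 beside -0.01 over all genes), with Trim72 at -0.655 and Dysf at -0.10 (adjusted p = 0.426). The muscle markers summed to 118910 ± 2237 with DMSO and 143313 ± 1169 with oligomycin, but of the 6 genes 2 were higher and 2 lower, with a median difference of -0.07. Of 4 myogenic genes 1 was higher and 2 lower, with sums of 43437 ± 964 and 36597 ± 1563, and the proliferation markers summed to 1205 ± 124 and 1222 ± 60.4. The part of these lists in the members' changes was not tested, here and under the other treatments of myotubes.

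Piericidin and antimycin moved Cavin2 and Cavin4 in opposite directions. Cavin2 rose from 316, 366 and 339 to 489, 489 and 485 with piericidin (0.525, SE 0.077, adjusted p = 4.58e-05) and to 491, 531 and 510 with antimycin (0.60, SE 0.075, adjusted p = 3.35e-06). Cavin4 fell from 4212, 4184 and 4307 to 2822, 3012 and 3023 (-0.51, SE 0.038, adjusted p = 1.36e-09) and to 3064, 2975 and 2863 (-0.50, SE 0.038, adjusted p = 1.16e-09). With antimycin Cavin1 also fell by 0.16 (adjusted p = 0.00648) and Cav3 by 0.21 (adjusted p = 0.0208), the latter lost without DMSO replicate 3 or antimycin replicates 1 or 2 (adjusted p = 0.0884, 0.0808 and 0.0503) or with no filter (0.0996). Piericidin gave 2 of 8 calls, beside 8.99% of all genes, and antimycin 4 of 8, beside 12.9%. Cavin3 with piericidin was called without piericidin replicate 3 (0.20, adjusted p = 0.0497). Cav2 was at 162, 190 and 162 with piericidin and 176, 131 and 142 with antimycin, adjusted p = 0.201 and 0.782, and Cav1 and Ehd2 overlapped DMSO under both. The muscle markers summed to 140348 ± 1497 with piericidin and 133221 ± 1748 with antimycin, with 2 of 6 higher and 3 lower in each, and the myogenic genes to 37728 ± 1766 and 35974 ± 561, with 1 of 4 higher and 1 lower in each.

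**Figure D4:**
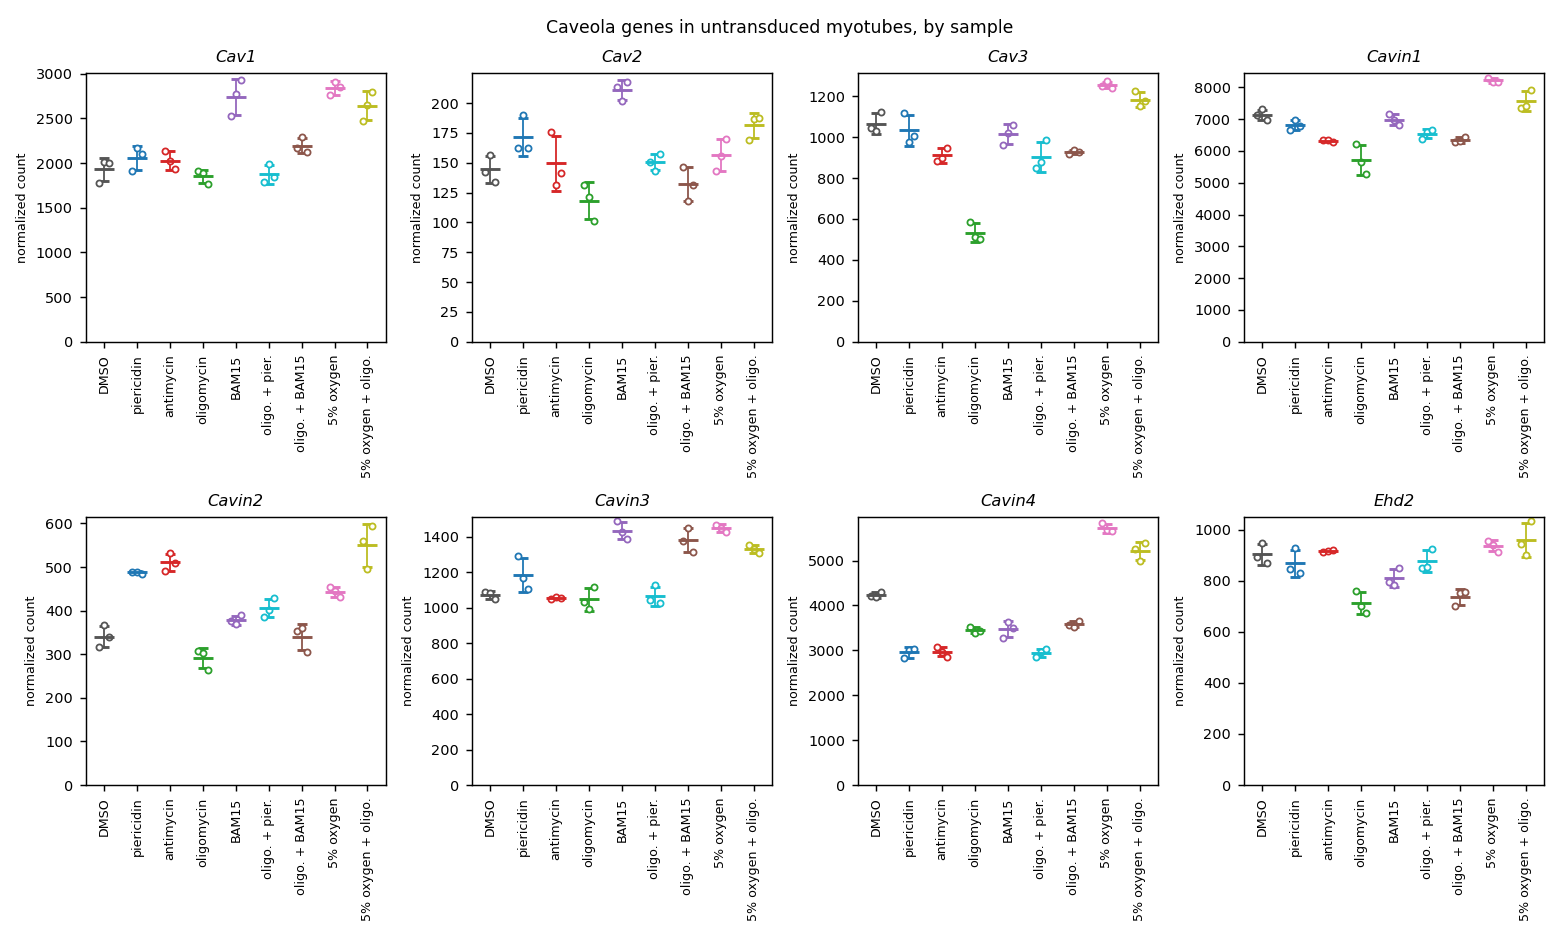
Normalized counts (linear axis from 0) of the 8 members in the 27 samples of untransduced myotubes by treatment, with a point per sample, a bar at the mean and whiskers of 1 SD. Cav3 with oligomycin alone, at 502 to 585, sits below all other treatments, which run from 848 to 1273.

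The combinations addressed whether the level under oligomycin changed when complex I was also inhibited, the membrane uncoupled or oxygen lowered. With piericidin added, Cav3 was at 848, 878 and 986, above oligomycin alone by 0.76 (SE 0.063, adjusted p = 1.95e-09). With BAM15 added it was at 916, 937 and 929 (0.80 above, SE 0.063, adjusted p = 4.31e-10), and in 5% oxygen with oligomycin at 1224, 1151 and 1176 (1.17 above, SE 0.063, adjusted p = 2.11e-13). No sample of the 3 combinations reached down to oligomycin alone. Atf3 and Ddit3 summed to 242 ± 11.04 with DMSO, 5285 ± 82.8 with oligomycin, 749 ± 57.5 with oligomycin and piericidin, 1173 ± 110 with oligomycin and BAM15 and 655 ± 68.1 with oligomycin in 5% oxygen, and their part in the level of Cav3 was not tested. The muscle markers summed to 140535 ± 1872, 136499 ± 5447 and 134997 ± 3048 in the 3 combinations and the myogenic genes to 37400 ± 305, 37079 ± 1876 and 35497 ± 1052.

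Beside Cav3, piericidin with oligomycin gave higher Ehd2 (0.30), Cavin1 (0.19), Cavin2 (0.47) and Cav2 (0.34, adjusted p = 0.0411) and lower Cavin4 (-0.23) than oligomycin alone, 6 of 8 beside 20.9%. The call of Cav2 was lost without any one of the combination's 3 samples (adjusted p from 0.0547 to 0.118) or oligomycin replicates 2 or 3 (0.072 and 0.184), and with DESeq2, no filter or only the groups compared (0.093, 0.296 and 0.122). Against piericidin alone edgeR called 0 of 8, beside 1.19% of all genes, with 4 unadjusted (Cav1, Cav3, Cavin2, Cavin3), beside 1351 of 12491 genes, and 0 with DESeq2. BAM15 with oligomycin gave higher Cav1 (0.24), Cavin1 (0.15), Cavin3 (0.40) and Cavin2 (0.22, adjusted p = 0.0376) than oligomycin alone, 5 of 8 with Cav3, beside 26.1%. There Cavin2 overlapped between the groups and its call was lost without combination replicates 1 or 2 or oligomycin replicate 3 (0.138, 0.172 and 0.181) and under 4 of the other settings (0.0506 to 0.31), and that of Cavin1 with only the groups compared (0.0785). Against BAM15 alone Cav1 (-0.32) and Cav2 (-0.67) were lower, 2 of 8 beside 1.7%, both lost with only the groups compared (0.0531 and 0.0608), and DESeq2 also called Cavin1 lower (0.0308).

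BAM15 alone raised Cav1, Cav2 and Cavin3. Cav1 was at 2527, 2776 and 2929 beside 1780, 2017 and 1996 with DMSO (0.51, SE 0.061, adjusted p = 9.77e-07). Cav2 was at 214, 202 and 217 beside 142, 157 and 134 (0.55, SE 0.115, adjusted p = 0.00108), and Cavin3 at 1489, 1425 and 1390 beside 1086, 1083 and 1049 (0.42, SE 0.055, adjusted p = 3.56e-06). Cavin4 was lower (-0.29, SE 0.038, adjusted p = 4.17e-06), and Ehd2 was lower (-0.16, adjusted p = 0.0436) in a call lost without DMSO replicates 1 or 2 or BAM15 replicates 1 or 2 (0.0795, 0.188, 0.102 and 0.128), with no filter (0.233), with only the groups compared (0.0645) or with the replicate block (0.0553). These were 5 of 8, 3 higher and 2 lower, beside 25.4%. With BAM15 the muscle markers summed to 144812 ± 3856, 3 of 6 higher and 1 lower, and the myogenic genes to 38502 ± 1314, 1 of 4 higher and 2 lower.

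In 5% oxygen 6 of 8 members were higher and 0 lower, beside 22.1% of all genes called and 12.3% called higher. Cav1 was at 2761, 2911 and 2851 (0.58, SE 0.061, adjusted p = 7.67e-08), Cavin4 at 5830, 5671 and 5652 (0.455, SE 0.038, adjusted p = 1.25e-09) and Cavin3 at 1469, 1450 and 1426 (0.455, SE 0.055, adjusted p = 6.94e-07). Cavin2 (0.40), Cav3 (0.26) and Cavin1 (0.225) were higher with an adjusted p of at most 0.00268, and Ehd2 (0.07) and Cav2 (0.135) overlapped with normal oxygen. In the same samples all 4 proliferation markers were lower, with a sum of 234 ± 14.9 beside 1205 ± 124, and the muscle markers summed to 134950 ± 1655 beside 118910 ± 2237, though of the 6 genes 2 were higher and 2 lower (median -0.08). Of the 4 myogenic genes 2 were lower and 0 higher, with a sum of 34907 ± 693 beside 43437 ± 964. Their part in the members' rise was not tested.

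Oligomycin within 5% oxygen left Cav3 at 1224, 1151 and 1176 beside 1251, 1273 and 1242 with DMSO (-0.08, SE 0.061, adjusted p = 0.616). Cavin2 was the 1 of 8 members called, higher by 0.31 (adjusted p = 0.0139), beside 4.26% of all genes, and its call was lost without combination replicates 1 or 3 or DMSO replicate 3 (0.0568, 0.0957 and 0.0652), with no filter (0.17) or with only the groups compared (0.093), while Cavin4 was called lower with DESeq2, with its size factors or with plate position (0.0125, 0.0358 and 0.0249). With oligomycin present, 5% oxygen gave 8 of 8 members higher, by 0.36 to 1.17, beside 33.3% of all genes called and 16.7% called higher. The difference between the response in 5% and in normal oxygen, a test chosen after seeing the data, was 0.91 for Cav3 (SE 0.087, adjusted p = 2.86e-08), 0.53 for Cavin2 (SE 0.108, adjusted p = 0.000965), 0.37 for Ehd2 (SE 0.081, adjusted p = 0.00175) and 0.20 for Cavin1 (SE 0.055, adjusted p = 0.0111). Cav2 (0.50, adjusted p = 0.0393) and Cavin4 (0.16, adjusted p = 0.0391) also passed, which made 6 of 8 beside 17.4%, and 3 with no filter, where Cavin1, Cav2 and Cavin4 did not pass (adjusted p = 0.0839, 0.292 and 0.425). Cavin1 and Cav2 were also lost with only the groups compared (0.0625 and 0.0743), and Cav2 with DESeq2 (0.0884). The call of Cav2 was lost without normal-oxygen DMSO replicates 1 or 2, oligomycin replicates 2 or 3, 5% oxygen DMSO replicates 1 or 2 or 5% oxygen oligomycin replicates 2 or 3 (0.0583 to 0.111), and that of Cavin4 without any of the 12 samples other than 5% oxygen DMSO replicate 1 and 5% oxygen oligomycin replicate 2 (0.0503 to 0.0984).

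In transduced myotubes Cav3 again had the largest response to oligomycin of the 8 members. It was at 855 and 804 with DMSO and 326 and 321 with oligomycin in GFP myotubes (-1.32, SE 0.092, adjusted p = 9.71e-08), and at 821, 858 and 902 and at 344, 430 and 374 in LbNOX myotubes (-1.16, SE 0.074, adjusted p = 2.54e-08). Cavin1 fell by 0.37 in GFP and 0.30 in LbNOX myotubes, Cavin2 by 0.37 and 0.47 and Cavin3 by 0.22 and 0.20, and Ehd2 fell by 0.28 in LbNOX myotubes. In GFP myotubes the call of Cavin2 (adjusted p = 0.0298) was lost without DMSO replicates 1 or 2 or oligomycin replicate 2 (0.117, 0.0988 and 0.209), with only the groups compared (0.071) or with plate position (0.071), and that of Cavin3 (adjusted p = 0.032) without DMSO replicate 2 or oligomycin replicates 1 or 2 (0.253, 0.162 and 0.0643), with DESeq2 (0.0627), no filter (0.195) or only the groups compared (0.123). A group of 2 that lost a sample was again assumed to vary like the other groups. In LbNOX myotubes the call of Cavin3 (adjusted p = 0.0154) was lost without DMSO replicates 1 or 3 or oligomycin replicate 1 (0.0766, 0.0569 and 0.0727) or with no filter (0.11). These were 4 of 8 members beside 25.9% of all genes, and 5 of 8 beside 32%, all lower. In each line 2 of 6 muscle markers were higher and 3 lower with oligomycin, and 1 of 4 myogenic genes higher and 2 lower.

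Piericidin lowered Cavin4 in both, from 3550 and 3361 to 2624 and 2807 in GFP myotubes (-0.35, SE 0.044, adjusted p = 0.000359), the 1 of 8 called there beside 3.09% and lost with only the groups compared (0.109), and from 3739, 3650 and 3578 to 3050, 2919 and 3094 in LbNOX myotubes (-0.30, SE 0.036, adjusted p = 9.82e-05). In GFP myotubes Cavin2 was called higher with no filter or with plate position (0.0383 and 0.0398). Cavin2 rose in LbNOX myotubes (0.40, adjusted p = 0.0188), 2 of 8 called with Cavin4 beside 6.78%, and that call was lost without DMSO replicates 2 or 3 or piericidin replicates 1 or 2 (0.0765, 0.0615, 0.0674 and 0.0815). Cav2 there (0.44, adjusted p = 0.0902) was called without piericidin replicate 3 (0.565, adjusted p = 0.0454). LbNOX against GFP with DMSO gave 0 of 8 with edgeR, beside 0.0242% of all genes, 1 unadjusted (Cavin4), beside 748 of 12397 genes, and 0 with DESeq2. The difference between LbNOX and GFP responses gave 0 of 8, unadjusted 0 and with DESeq2 0, for oligomycin and for piericidin alike, where 0% of all genes were called by edgeR and 525 and 567 of 12397 had an unadjusted p under 0.05. The difference for Cav3 with oligomycin was 0.155 (SE 0.118).

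In day 1 cells oligomycin lowered 5 of 8 members, beside 20.7% of all genes called and 10.1% called lower. Cav3 went from 189, 186 and 203 to 93.01, 132 and 105 (-0.77, SE 0.151, adjusted p = 0.00362), Cavin1 from 9341, 9170 and 9217 to 7012, 7028 and 6789 (-0.38, SE 0.031, adjusted p = 5.78e-06) and Ehd2 from 1235, 1320 and 1195 to 996, 1026 and 940 (-0.30, SE 0.059, adjusted p = 0.00342). Cavin4 fell by 0.25 (adjusted p = 0.00222) and Cavin2 by 0.20 (adjusted p = 0.018), the latter lost without DMSO replicates 1 or 2 or oligomycin replicate 1 (0.0765, 0.0628 and 0.072) or with no filter (0.0511), and Cavin3 was called higher without oligomycin replicate 2 (0.20, adjusted p = 0.0442). Piericidin lowered Cavin4 from 2858, 2680 and 2703 to 2276, 2253 and 2345 (-0.26, adjusted p = 0.0131), lost without DMSO replicate 1 or piericidin replicates 1 or 2 (0.0627, 0.0539 and 0.0555), and raised Cavin2 (0.24, adjusted p = 0.0291), lost without any one of the 6 samples (0.0595 to 0.123), with no filter (0.0742) or with the replicate block (0.0581), 2 of 8 beside 2.75%. Without DMSO replicate 1 the calls over both inhibitors went from 7 to 4. All 9 day 1 samples came from outer wells of the plate. Atf3 and Ddit3 summed to 304 ± 22.3 with DMSO, 284 ± 24.9 with piericidin and 2455 ± 15.04 with oligomycin. The myogenic genes summed to 24434 ± 416, 23948 ± 87.35 and 20524 ± 584 in that order, with 0 of 4 called with piericidin and 1 higher and 1 lower with oligomycin, and the proliferation markers to 1997 ± 125, 1765 ± 66.8 and 1604 ± 76.2, with 0 of 4 called and 2 lower. Of 6 muscle markers 1 was higher and 3 lower with each inhibitor, and of 16 sterol genes 14 were lower with oligomycin and 1 higher with piericidin. The part of these lists in the members' changes was not tested.

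**Figure D5:**
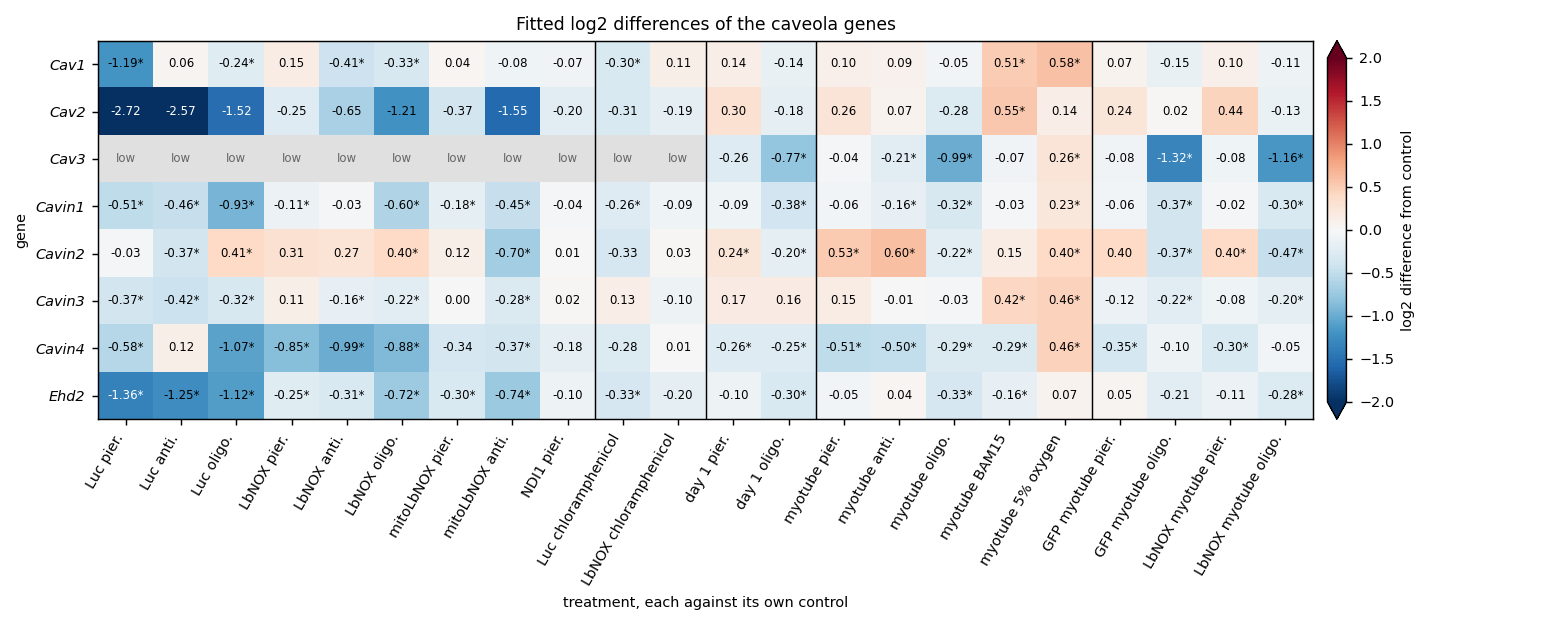
Fitted log2 differences of each treatment from its own control (color scale from -2 to 2, with values beyond it in the end color and each value written in its cell) for the 8 members, in myoblasts, chloramphenicol, day 1 cells, untransduced myotubes and transduced myotubes; an asterisk marks an adjusted p under 0.05 and low marks Cav3 under the filter. Cav2 in the 11 columns of myoblasts has no asterisk because those values chose it; Cav3 is darkest under oligomycin, from -0.77 at day 1 to -1.32 in GFP myotubes.

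Responses to the same inhibitor were also compared between myotubes and control myoblasts, with the confounding of state given above. Cav2 was not tested, and Cav3, at 0 to 5 counts in myoblasts, was left out of the counts. For piericidin, the myotube response exceeded the myoblast response by 1.36 in Ehd2, 1.34 in Cav1, 0.60 in Cavin2, 0.56 in Cavin3 and 0.49 in Cavin1, 5 of 6 beside 46.5% of all genes called and 25.2% called higher. That of Cavin2 was lost without the samples numbered 3 (0.48, adjusted p = 0.0878). For antimycin, Ehd2 (1.33), Cavin2 (1.01), Cavin3 (0.46) and Cavin1 (0.34) were higher and Cavin4 (-0.57) lower, 5 of 6 beside 47.9%. For oligomycin, Ehd2 (0.79), Cavin4 (0.78), Cavin1 (0.62) and Cavin3 (0.30) were higher and Cavin2 (-0.62) lower, 5 of 6 beside 29%. Here Cavin3 was lost with no filter (0.118) and without the samples numbered 1 or 3 (0.0664 and 0.148) and Cavin2 without those numbered 3 (-0.57, adjusted p = 0.0711). Cav2 differed by 3.03, 2.68 and 1.24 for the 3 inhibitors, with no test.

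Ranked over the 35 conditions, Cav1 ran from 453 ± 25.8 in control myoblasts with piericidin to 2841 ± 75.6 in myotubes in 5% oxygen, and Cav2 from 33.9 ± 11.1 in the same piericidin samples to 250 ± 10.1 (n = 2) in luciferase myoblasts after 48 hr of DMSO (SD, n = 3 unless given). Ehd2 ran from 579 ± 65.9 in control myoblasts with piericidin to 1513 ± 44.1 with DMSO, so its whole range lay within 1 line. Cavin1 ran from 4963 ± 68.6 (n = 2) in GFP myotubes with oligomycin to 10864 ± 430 (n = 2) in luciferase myoblasts after 48 hr of DMSO. Cavin2 and Cavin3 were highest in day 1 cells with piericidin, 1433 ± 38.6 and 1640 ± 77.5, and lowest with antimycin in mitoLbNOX (223 ± 17.7) and control myoblasts (918 ± 19.4). Cav3 and Cavin4 were highest in myotubes in 5% oxygen, 1255 ± 15.9 and 5718 ± 97.7, and Cavin4 was lowest in LbNOX myoblasts with antimycin (114 ± 19.5). Of the 34 pairs of neighbours in each ranking, most did not differ beyond their spread: 30 for Cav1, 31 for Cav2, 23 for Cav3, 30 for Ehd2, 28 for Cavin1 and Cavin2, 31 for Cavin3 and 24 for Cavin4.

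As a description over condition means, which share libraries and depth, the pattern of Cav3 was nearest to that of the muscle genes Mypn (Pearson r = 0.997), Mb (0.997) and Tceal7 (0.996) among 13357 genes over the 35 conditions, and it had r = 0.98 with Cavin4. Cav1 was nearest to Sh3bp4 (0.944), Neurl2 (0.929) and Kremen1 (0.921), and Cavin1 was close to Epha4 (0.919) and Tmem63a (0.917), with Ehd2 at 0.866. Cav2 was nearest to Slc9a3r1 (0.905), Eif2ak2 (0.902) and Acat2 (0.894), in a ranking that also holds the values that chose it. Over the 13 myoblast conditions of 10 hr, which hold the values that chose it, it was close to Ankrd34a (0.989) and Eif2ak2, the kinase PKR (0.988), among 11981 genes. Its r there was 0.969 with Ehd2, 0.892 with Cavin3, 0.695 with Cav1, 0.478 with Cavin2 and -0.036 with Cavin4, and nothing is read from this order because the choice of Cav2 used these conditions.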

How the data were processed

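RNA was measured by Smart-seq2, a polyA method that does not keep strand, in 96 C2C12 samples of 35 conditions. The authors pseudoaligned reads with kallisto 0.44 with bias correction to Ensembl transcripts of GRCm38, summarized them per gene with tximport, summed the flow-cells and deposited estimated counts, which were rounded to whole numbers here. Reads had been converted with bcl2fastq 2.20.0.422 per the submitters' processing notes. Totals of 6458295 to 15366745 per sample set the precision, and counting intervals cover counting error only. Samples were grouped by their labels. A gene was fitted where all replicates of some condition reached 16 counts, with edgeR 4.0.16 (R 4.3.3, limma 3.58.1), with TMM scaling and a quasi-likelihood F test, once for each set of conditions, and p-values were adjusted by Benjamini-Hochberg over all genes of a comparison. SEs were obtained from F, as the absolute log2 difference over its root. Levels are counts divided by DESeq2 1.42.0 size factors. The authors' own tests used DESeq2.

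The members and lists were chosen with earlier results of these data known. The genes named are the 8 members, listed genes where a result turns on them, and, for Cav1, Cav2, Cav3 and Cavin1, the 3 genes with the highest Pearson r over condition means of log2(normalized count + 1), without predicted gene names; some of these are not reported here. The code was tested on simulated data. Alternatives were DESeq2 size factors, no filter, DESeq2's Wald test, a replicate block, only the groups compared, plate position and leaving out each library. The test of oligomycin by oxygen was added after seeing the data. No 2 replicates held identical values.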

Additional observations from a re-analysis of the deposited data

Results flagged for a closer look

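The responses below differed between lines, oxygen levels or cell states by edgeR's test of the difference itself, as log2 values of a line or state minus its control, with Benjamini-Hochberg adjusted p-values under 0.05 over all genes. No explanation was weighed.

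For piericidin, LbNOX minus control myoblasts gave 1.346 for Cav1, 1.108 for Ehd2, 0.395 for Cavin1 and 0.478 for Cavin3. mitoLbNOX minus control gave 1.228 for Cav1, 1.057 for Ehd2, 0.329 for Cavin1 and 0.371 for Cavin3. NDI1 minus control gave 1.124 for Cav1, 1.256 for Ehd2, 0.461 for Cavin1 and 0.389 for Cavin3. For antimycin, LbNOX minus control gave -0.464 for Cav1, 0.94 for Ehd2, 0.428 for Cavin1, 0.641 for Cavin2, 0.263 for Cavin3 and -1.109 for Cavin4, and mitoLbNOX minus control gave 0.507 for Ehd2. The antimycin call of Cavin3 in LbNOX was lost with no filter (adjusted p = 0.177). For oligomycin, LbNOX minus control gave 0.402 for Ehd2 and 0.327 for Cavin1.

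The oligomycin response of myotubes in 5% minus normal oxygen, a test chosen after seeing the data, gave 0.502 for Cav2, 0.914 for Cav3, 0.373 for Ehd2, 0.202 for Cavin1, 0.531 for Cavin2 and 0.162 for Cavin4. With no filter 3 of these 6 passed, and not Cav2, Cavin1 or Cavin4.

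Myotubes minus control myoblasts, which also differ in transduction, doxycycline, serum and density, gave for piericidin 1.341 for Cav1, 1.356 for Ehd2, 0.492 for Cavin1, 0.602 for Cavin2 and 0.564 for Cavin3. For antimycin the fit gave 3.9 for Cav3, but control myoblasts with antimycin had 0 counts of it in all 3 libraries, it passed the filter only through myotubes, and the call was lost without the samples numbered 1, 2 or 3 (adjusted p = 0.308, 0.0865 and 0.0602), so nothing is read from it. The other members gave 1.332 for Ehd2, 0.343 for Cavin1, 1.014 for Cavin2, 0.462 for Cavin3 and -0.571 for Cavin4. For oligomycin they gave 0.793 for Ehd2, 0.618 for Cavin1, -0.621 for Cavin2, 0.296 for Cavin3 and 0.78 for Cavin4. The oligomycin calls of Cavin3 and Cavin2 and the piericidin call of Cavin2 were each lost when a replicate number was left out. That of Cavin3 with oligomycin was also lost with no filter.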

How the results depend on the processing

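No called member reversed its direction under any alternative run. The counts of member calls that moved were those of the transgenes without inhibitor (1 call, and 2 with no filter, 3 with DESeq2's Wald test and 3 with the replicate block), chloramphenicol (3, and 5 with no filter and 1 with only the groups compared) and oligomycin by oxygen (6, and 3 with no filter), and the cause was not tested. With 1 library left out, transgenes without inhibitor gave 0 to 1 calls (0 without NDI1 DMSO replicate 2), chloramphenicol 1 to 3 (1 without luciferase chloramphenicol replicate 1 or DMSO replicate 2), oligomycin by oxygen 4 to 5, and day 1 cells 4 to 8 (4 of 7 without DMSO replicate 1). With the main count of calls in brackets, the ranges were 14 to 15 (15) for inhibitors in control myoblasts and 10 to 12 (12) for inhibitor against inhibitor. They were 18 to 20 (20) in the other lines, 21 to 22 (21) for transgene by inhibitor and 9 to 12 (11) for inhibitors in untransduced myotubes. They were 32 to 36 (33) for the uncoupler, low oxygen and combinations and 10 to 13 (12) in transduced myotubes. With a replicate number left out of all groups they were 22 to 23 (23) for cell state and 12 to 15 (16) for cell state by inhibitor. Those counts for transgenes and cell state still hold Cav2 against control DMSO and Cav3, which the text gives with no test. Replicate numbers did not pair the samples: the mean correlation of same-numbered deviations was -0.04 to 0.055 over 5 fits and the lowest -0.302. With the replicate block the other counts were 15, 12, 22, 22, 3, 11, 32, 6, 12, 6, 23 and 15, each within 1.5 times the main count. Over members in comparisons, results were counted, called or not, by whether they stayed on their side of the threshold. They did so in 344 of 354 with DESeq2's Wald test, 358 of 360 with DESeq2 size factors and 352 of 360 with the replicate block. With no filter 336 of 360 stayed (20 calls lost and 4 gained), and with only the groups compared 339 of 360 (19 lost and 2 gained). With plate position as a covariate 334 of 344 stayed. That covariate was not run for day 1 cells because all came from outer wells. Of 304 ratios of levels, 25 moved by over 1 SD with TMM-scaled CPM. Of the values of Cav2 given with no test, 12 of 165 moved by over 1 SD when a library was left out and 2 of 24 with plate position. Cav3 in myoblasts, at 0 to 5 counts, is too shallow to show a response.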
